A study of Equus caballus with 22 samples.

Results

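PTGDS encodes lipocalin-type prostaglandin D synthase, and its transcript was followed here through the equine endometrium, the glandular lining of the uterus, in early pregnancy. It is 1 of 675 genes that could be named on the array. Its members are the 2 probes assigned to the horse RefSeq transcript NM_001081868, A_69_P000406 and A_69_P001906, which are called the brighter and the dimmer probe after their mean signal. The groups were endometrial biopsies of warmblood mares pregnant at day 12 (6 samples), control samples of the same 6 mares at the matching stage without pregnancy, biopsies of mares pregnant at day 8 (5 samples), and control samples of those 5 mares. Every pregnant biopsy was taken after the embryo had been flushed out, so no embryo was in the uterus at that moment. No sample received any other treatment that the labels mention, and the sources used here give no ages. RNA was hybridised to 1-colour Agilent arrays, with both arrays of a mare on 1 slide. The gene was chosen by the measured within-mare changes of these arrays. These ran in opposite directions at the 2 days on the dimmer probe, while the brighter probe averaged 0.02 ± 0.16 log2 (SD) at day 8. Because of this choice, the changes of PTGDS with pregnancy are given below as a description and were not tested.

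Lipocalin-type prostaglandin D synthase converts prostaglandin H2, the common intermediate that the cyclooxygenases make, into prostaglandin D2. Unlike the other prostaglandin synthases it belongs to the lipocalins, small secreted proteins with a pocket for lipophilic molecules, and it also carries such molecules as retinoids. In the horse, endometrial prostaglandins matter at these stages: prostaglandin F2α from the endometrium ends the corpus luteum of a mare that is not pregnant, and the mobile early conceptus must prevent this. In the horse RefSeq annotation PTGDS lies between 2 other lipocalin genes, LCN12 and LCNL1, neither of which could be named on the array.

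Both PTGDS probes were well above background on 22 of 22 arrays and had no spot marked as an outlier. A level here is the log2 intensity minus that of the spot at the 75th percentile of the same array, so 0 is the level of that percentile. Over the 22 arrays the brighter probe lay between the 62.1st and the 73.8th percentile of all probes tested, a place above the middle of the array. The 2 probes ranked the arrays alike, with a Pearson r of 0.930 and a Spearman rho of 0.942 over 22 arrays. Within the days, r was 0.939 over the 12 arrays of day 12 and 0.769 over the 10 of day 8. For the within-mare changes, pregnant minus control, r was lower, at 0.811 over 11 mares. Over the 6 mares of day 12 it was 0.640, with a rho of 0.429. Each probe was printed as 1 spot, and the scanner software put the error of these spots at 10.0% of the signal, which corresponds to 0.204 for the log2 ratio of a pregnant to a control array. This error was nearly the same for every spot of both probes (10.0006% to 10.0185%). It is an error of single spots and not a measured spread between arrays or biopsies.

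At day 12, PTGDS was lower in the pregnant than in the control sample of 6 of 6 mares on both probes, except that with a normexp background correction the brighter probe was lower in 4 of 6 and the dimmer in 5 of 6. The level of the brighter probe ran from −1.002 to −0.18 with a median of −0.63 in pregnant endometrium at day 12, against −0.97 to 0.23 with a median of −0.37 in control endometrium. The level of the dimmer probe ran from −2.11 to −0.98 with a median of −1.59 in pregnant samples, against −1.77 to −0.48 with a median of −1.27 in control samples. The ranges of the 2 groups overlapped widely on both probes, since mares differed from each other more than the 2 samples of 1 mare did. Mare 3 was the lowest of the control samples and mare 2 the highest on either probe.

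**Figure D1:**
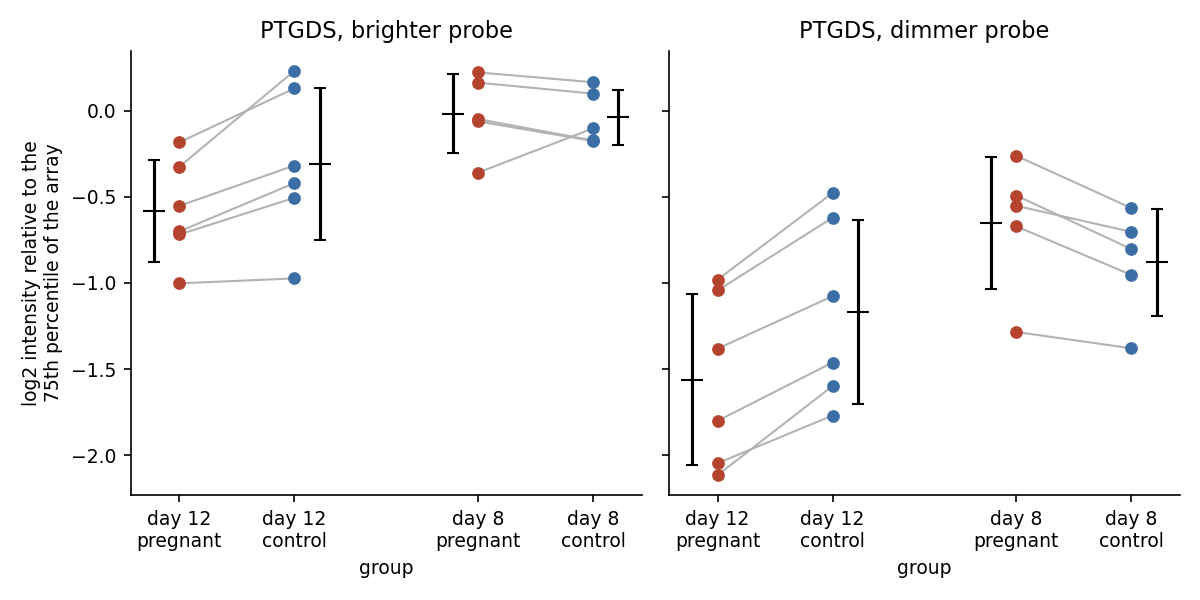
PTGDS level on the brighter and the dimmer probe in every sample (y axis, log2 intensity above or below the array's 75th percentile), pregnant and control at day 12 and at day 8 on the x axis, with a line joining the 2 samples of a mare and the mean ± SD of each group as a bar beside its points. At day 12 every line climbs towards the control sample, and at day 8 the lines of the dimmer probe run the other way in 5 of 5 mares and those of the brighter probe in 4 of 5.

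Within mares, the log2 change of the brighter probe at day 12, pregnant minus control, was −0.23 in mare 1, −0.56 in mare 2, −0.03 in mare 3, −0.28 in mare 4, −0.21 in mare 5 and −0.31 in mare 6. Its mean was −0.27 ± 0.17 (SD, n = 6 mares), or 0.829 of the control level. The change in mare 3 was close to 0, and 5 of the 6 exceeded the error that the scanner software gives to a pair of spots. On the dimmer probe the changes were −0.30, −0.50, −0.28, −0.34, −0.52 and −0.42 in mares 1 to 6. They averaged −0.39 ± 0.10 (SD, n = 6), or 0.761 of the control level, and 6 of 6 exceeded the scanner error. Counts past this error, here and at day 8, describe changes for which the gene was chosen. The share of all probes past it was not counted. Of all probes tested on every array, 3.71% were lower in 6 of 6 mares at day 12, the property for which the gene had been picked.

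At day 8 the probes differed from each other. The level of the brighter probe in pregnant endometrium was 0.22, −0.06, −0.05, −0.36 and 0.16 in mares 1, 2, 4, 5 and 6, against 0.16, −0.18, −0.17, −0.10 and 0.10 in the control samples of the same mares. Pregnant and control samples covered nearly the same range, with pregnant mare 5 the lowest of all 10 samples. Its changes were 0.06, 0.11, 0.12, −0.26 and 0.06, a mean of 0.02 ± 0.16 (SD, n = 5), and 1 of 5, the fall in mare 5, was larger than the scanner error.

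The dimmer probe at day 8 had levels of −0.26, −0.49, −0.67, −1.28 and −0.55 in pregnant mares 1, 2, 4, 5 and 6, against −0.57, −0.80, −0.95, −1.38 and −0.70 in the control samples. Each pregnant sample was above its own control, while the groups overlapped and mare 5 was again the lowest in both. The changes were 0.30, 0.31, 0.28, 0.09 and 0.15, a mean of 0.23 ± 0.10 (SD, n = 5), or 1.17 times the control level, and 3 of 5 exceeded the scanner error. With normexp this probe was higher in 4 of 5 mares, the change of mare 5 being −0.01. The share of all probes that were higher in 5 of 5 mares at day 8 was 3.99%, and 0.402% were both lower in 6 of 6 mares at day 12 and higher in 5 of 5 at day 8.

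**Figure D2:**
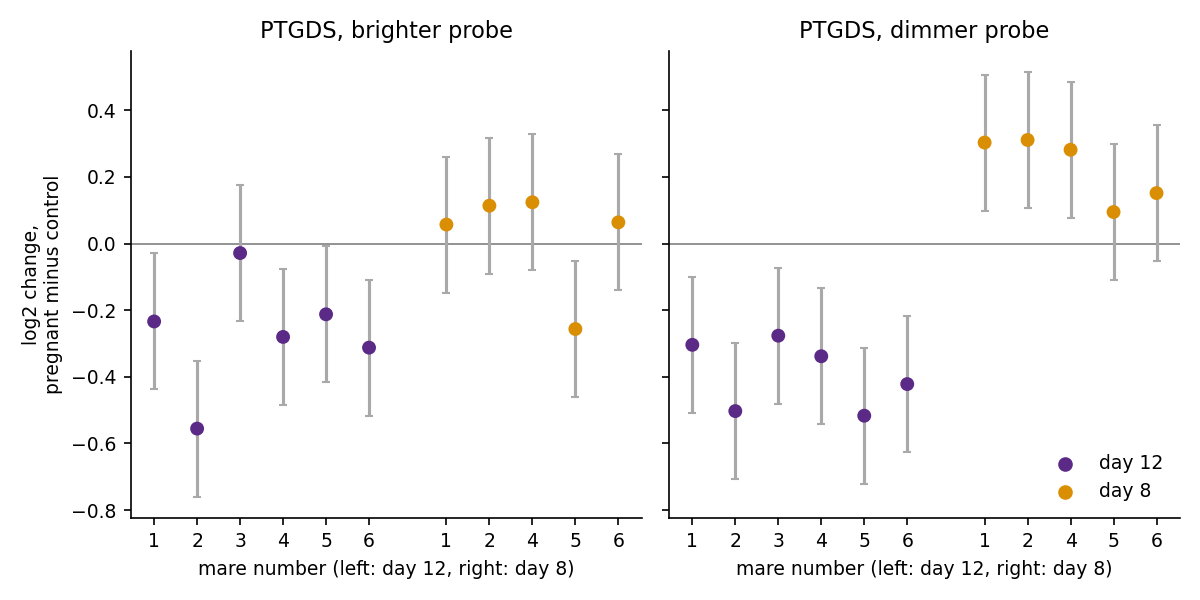
Change of PTGDS with pregnancy in every mare (points, log2 pregnant minus control) on each probe, by mare number on the x axis with day 12 left of day 8, and with the error that the scanner software gives the ratio as a bar. On the dimmer probe every mare at day 12 lies between −0.52 and −0.28 and every mare at day 8 between 0.09 and 0.31, whereas on the brighter probe mare 5 at day 8, at −0.26, lies among the mares of day 12.

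The change at day 12 minus the change at day 8 was −0.29 ± 0.10 on the brighter probe (SE, 6 and 5 mares) and −0.62 ± 0.06 on the dimmer probe. In other words, the pregnant-to-control ratio at day 12 was 0.817 times that at day 8 by the brighter probe and 0.650 times by the dimmer one. The changes of the 2 probes did not differ by a constant: brighter minus dimmer was 0.12 ± 0.13 (SD) at day 12, positive in 5 of 6 mares, and −0.21 ± 0.10 at day 8, negative in 5 of 5. The brighter probe gave the mean change nearer to 0 at both days, though not in mare 2 at day 12 or mare 5 at day 8. Among all probes the day 12 change stood at the 9.25th percentile for the brighter and at the 4.03rd for the dimmer probe. The day 8 change stood at the 57.7th and the 92.6th.

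The spread of the PTGDS change over mares is given as a description only, since the gene was chosen by these changes. The SD of the day 12 change over 6 mares was 0.17 on the brighter and 0.10 on the dimmer probe, against a median of 0.34 over all probes. At day 8 these SDs were 0.16 and 0.10, against 0.28 over all probes. Over the pairs of a slide the dimmer probe averaged −0.29, −0.50, −0.38 and −0.52 on the 4 slides of day 12 and 0.31, 0.28 and 0.12 on the 3 slides of day 8. On the brighter probe the day 12 slides gave −0.13, −0.56, −0.30 and −0.21 and the day 8 slides 0.09, 0.12 and −0.10, the last slide holding mare 5.

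Within a slide, pregnant samples always lay at position 1 or 3 and control samples at position 2 or 4, in 11 of 11 pairs, so that position on the slide and pregnancy cannot be told apart. The layout was the same at both days. For the pairs at positions 1 and 2 the dimmer probe changed by −0.36 on average at day 12 (n = 2) and by 0.20 at day 8 (n = 2). The pairs at positions 3 and 4 gave −0.41 (n = 4) and 0.25 (n = 3), values close to those of the first positions at each day. The brighter probe averaged −0.27 at both pairs of positions at day 12, but at day 8 it averaged −0.10 at positions 1 and 2 (n = 2) and 0.10 at positions 3 and 4 (n = 3), with opposite signs.

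**Figure D3:**
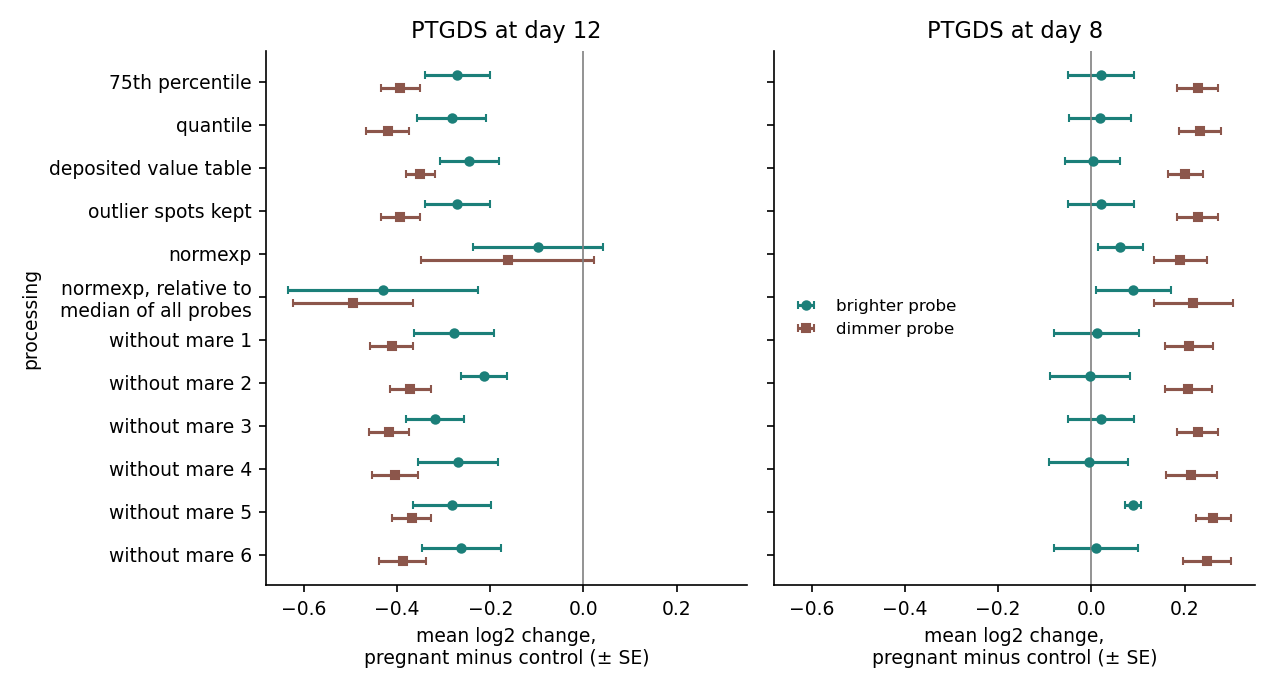
Mean change of PTGDS with pregnancy (log2, pregnant minus control, with its SE over mares) on each probe at day 12 and day 8 under each processing of the scanner values and with 1 mare left out at a time. The day 12 means stay below 0 and those of the dimmer probe at day 8 above 0. With normexp the day 12 means are −0.10 and −0.16, and their error bars reach past 0.

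Between the 2 days the level of PTGDS could be tested, because the mean of a mare's 2 samples does not enter the change for which the gene had been chosen. The mare means of the brighter probe were −0.45 ± 0.37 at day 12 (SD, n = 6, −0.99 to −0.03), against −0.03 ± 0.18 at day 8 (SD, n = 5, −0.23 to 0.19). Those of the dimmer probe were −1.36 ± 0.51 (−1.91 to −0.73) at day 12, against −0.77 ± 0.35 (−1.33 to −0.41) at day 8. The ranges overlapped on both probes. The difference was −0.42 ± 0.18 log2 (SE) for the brighter and −0.60 ± 0.25 for the dimmer probe, with limma adjusted p-values of 0.121 and 0.113 over all probes, so neither passed the threshold of 0.05, which 20.9% of all probes did. Unadjusted, both p-values were under 0.05 (0.0413 and 0.0371), as were those of 36.3% of all probes. Pregnant samples alone differed between the days by −0.56 and −0.91 on the 2 probes and control samples by −0.27 and −0.29. All day 12 arrays were on other slides, scanned on other days and read with another software version than the day 8 arrays, so day and batch cannot be told apart.

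In order of mean level, the 2 day 8 groups came highest and stood side by side on the brighter probe, pregnant at −0.02 ± 0.23 and control at −0.04 ± 0.16 (SD). Control day 12 followed at −0.31 ± 0.44 and pregnant day 12 at −0.58 ± 0.29. On the dimmer probe the order was pregnant day 8 at −0.65 ± 0.38, control day 8 at −0.88 ± 0.31, control day 12 at −1.17 ± 0.53 and pregnant day 12 at −1.56 ± 0.50. No neighbours in either order lay farther apart than the larger of their SDs, and only the pairing within mares separates pregnant from control.

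Biopsies are mixtures of cells, and in such tissue fewer cells of a type and less RNA per cell cannot be told apart. ESRP1, a splicing regulator of epithelial cells and the one epithelial marker of 10 listed that could be named, ranged from 2.47 to 3.12 in pregnant and from 2.51 to 3.11 in control samples of day 12, and from 2.56 to 3.16 in pregnant and from 2.52 to 3.12 in control samples of day 8. Its mean change was 0.00 at day 12, where it was higher in 3 of 6 mares, and 0.09 at day 8, where it was higher in 4 of 5. The mean level of this epithelial transcript was thus much the same in all 4 groups. Mare by mare, however, its changes rose and fell with those of the brighter PTGDS probe. Pearson r of these changes was 0.73 over both days, rank 28 from the highest among 598 named genes, and 0.76 within day 12. For the levels over all arrays r was 0.12. The part of ESRP1-bearing cells in the PTGDS changes was not tested. No marker of ciliated cells could be named.

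TAGLN, an actin-binding protein of smooth muscle, ranged from −1.43 to −0.35 in pregnant and from −2.85 to −1.08 in control samples of day 12. It was higher in 6 of 6 pregnant samples at day 12 by a mean of 0.90 and in 5 of 5 at day 8 by 0.28, and did not pass the test (limma adjusted p = 0.139 and 0.910). PECAM1, an adhesion molecule of endothelium, ranged from 0.51 to 1.51 in pregnant samples of day 12, against −0.13 to 1.07 in controls. It averaged 0.44 higher at day 12 and was higher in 4 of 6 mares, with single changes from −0.32 to 0.97. At day 8 it averaged 0.11 higher and was higher in 2 of 5 mares. The summed level of 4 macrophage markers (CD14, CD68, ITGAX and LAPTM5) was 0.18 higher at day 12, with a range of 3.24 to 3.62 in pregnant and of 2.80 to 3.58 in control samples. Over the 11 mare pairs the Pearson r with the brighter PTGDS probe was −0.37 for TAGLN and −0.67 for PECAM1. For CD14, CD68, ITGAX and LAPTM5 it was −0.72, −0.44, −0.40 and −0.63. None of the markers passed the test for pregnancy at either day. Their part in the PTGDS changes was not tested.

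The remaining marker lists moved less evenly. The summed level of the stromal DCN and LUM, matrix proteoglycans of fibroblasts, was 0.16 higher in pregnant samples at day 12 (range 3.66 to 4.46, against 3.80 to 4.26 in controls) and 0.20 higher at day 8 (range 4.40 to 4.80, against 3.95 to 4.95). The summed level of the lymphocyte markers CD2 and GZMB changed by −0.07 at day 12 and by 0.51 at day 8. It was higher in 3 mares at each day, and GZMB was by far the brighter (mean level 2.92, against −4.07). At day 8 the markers went opposite ways, GZMB by 0.52 ± 0.42 and CD2 by −0.21 ± 0.22 (SE). Their Pearson r with the brighter PTGDS probe was −0.20 for GZMB and −0.73 for CD2. The summed level of mast cell and platelet markers (FCER1A, TPSB2 and ITGA2B) changed by −0.14 at day 12 and 0.34 at day 8. Singly, these 3 genes changed by 0.10 ± 0.35, −0.23 ± 0.44 and −0.29 ± 0.08 at day 12 (SE). At day 8 they changed by 0.61 ± 0.38, 0.50 ± 0.48 and −0.07 ± 0.09. Pearson r with the brighter PTGDS probe was −0.12 for FCER1A, −0.11 for TPSB2 and 0.84 for ITGA2B. Haemoglobin HBA2, a sign of blood in the biopsy, averaged −0.40 at day 12 and −0.10 at day 8, and was lower in all mares but 1 at each day.

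Of 37 other genes of prostaglandin synthesis, signalling and removal on the list used here, 10 could be named on the array and all 10 were tested. At day 12, 1 of the 10 rose, none fell, and the median change was −0.03, against −0.02 for all probes. Over all probes 0.265% passed that test, 0.211% as higher and 0.0546% as lower. The one that rose was ABCC1, a membrane pump that exports conjugated lipid mediators including leukotrienes, with levels of −1.37 ± 0.33 in pregnant and −2.06 ± 0.35 in control samples (SD, n = 6 each). It was higher in 6 of 6 mares, by 0.68 ± 0.12 log2 (SE, limma adjusted p = 0.0474), on 1 of its 2 probes. The call was lost without mare 1, 2, 4 or 6, where the count was 0, and under several other settings.

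At day 8 none of the 10 passed limma's test (2, PTGS2 and PTGES, did at an unadjusted p under 0.05). Of all probes 0.00% passed, and 5.83% had an unadjusted p under 0.05. The median change of the 10 genes was 0.03, against −0.01 for all probes. The difference between the days passed for none of the 10 (4 at an unadjusted p under 0.05, namely PTGS2, PTGES, PTGFR and ABCC1), against 0.0104% of all probes. At an unadjusted p under 0.05 there were 4044 of 38457 probes. The values of the single genes are given here in the order of the pathway, with SEs from the fit.

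PLA2G4A, the cytosolic phospholipase that frees arachidonic acid from membranes, differed by 0.39 ± 0.21 at day 12 and by −0.23 ± 0.23 at day 8. The secreted phospholipase PLA2G2A differed by −0.14 ± 0.48 and −0.11 ± 0.53, with single mares from −2.40 to 2.39 at day 12. PTGS2, the inducible cyclooxygenase that supplies prostaglandin H2 to PTGDS and the other synthases, averaged 1.03 ± 0.53 in pregnant and 0.76 ± 0.58 in control samples of day 12 (SD, n = 6 each), and 1.34 ± 0.64 and 1.72 ± 0.44 at day 8 (SD, n = 5 each). It was thus higher in 6 of 6 mares at day 12, by 0.27 ± 0.11, and lower in 5 of 5 at day 8, by −0.37 ± 0.12, signs opposite to those of the dimmer PTGDS probe. Neither change passed (adjusted p = 0.354 and 0.833), nor did their difference of 0.64 ± 0.17 (limma adjusted p = 0.258). The size depended on the probe: the 3 PTGS2 probes lay between 0.27 and 1.03 at day 12. At day 8 they lay between −0.66 and −0.37, and none passed at either day. Of all probes, 2.24% were higher in 6 of 6 mares at day 12, 4.27% lower in 5 of 5 at day 8, and 0.0735% both.

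Among the terminal synthases, PTGES, which makes prostaglandin E2, differed by −0.15 ± 0.11 at day 12, lower in 4 of 6 mares, and by 0.28 ± 0.12 at day 8, higher in 5 of 5, with 5 probes between 0.26 and 0.28. Its signs at the 2 days were those of PTGDS, with a difference of −0.42 ± 0.16 that did not pass (limma adjusted p = 0.409). PTGES3, a cochaperone with prostaglandin E synthase activity, differed by 0.01 ± 0.10 and by 0.00 ± 0.11. AKR1C1, an aldo-keto reductase of steroids and prostaglandins, differed by 0.04 ± 0.22 and by 0.23 ± 0.24 on its brightest probe. Its 3 tested probes lay far apart at day 12, between −1.61 and 0.04, and between 0.10 and 0.23 at day 8. None of them passed.

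Receptors and breakdown showed no call either. PTGFR, the prostaglandin F2α receptor, differed by −0.49 ± 0.21 at day 12 and by 0.24 ± 0.23 at day 8, and PTGER2, a prostaglandin E2 receptor, by −0.07 ± 0.14 and 0.06 ± 0.15. HPGD, which inactivates prostaglandins by oxidising them, differed by −0.38 ± 0.43 and 0.44 ± 0.47 and was not well above background on 1 of the 6 pregnant arrays of day 12 and 1 of the 5 control arrays of day 8. With normexp the day 12 changes of PTGFR and HPGD reversed sign, to 0.28 and 0.48, without passing. The median day 12 change of all probes was then 0.33. The receptors of prostaglandin D2 itself, PTGDR and PTGDR2, and the haematopoietic synthase HPGDS could not be named on the array.

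**Figure D4:**
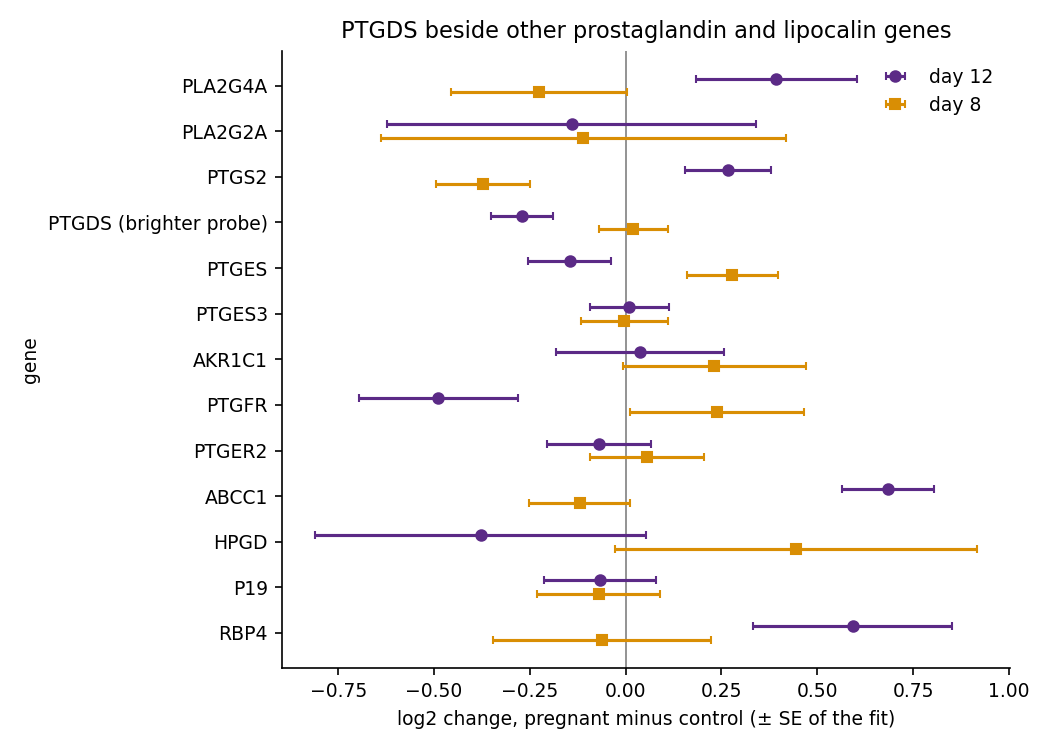
Change with pregnancy (log2, pregnant minus control, with its SE from the fit) of PTGDS on the brighter probe of the 10 other prostaglandin genes and of the lipocalins P19 and RBP4, at day 12 (circles) and at day 8 (squares). ABCC1 at day 12, at 0.68 ± 0.12, is the one value past the threshold. PTGS2, PLA2G4A, ABCC1 and RBP4 lie right of 0 at day 12 and left of 0 at day 8. PTGES, PTGFR, PTGER2, HPGD and PTGDS lie the other way round, and PTGES3 lies close to 0 at both days.

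Between the days, by mare means, the prostaglandin list held 1 gene that was higher at day 12 and 1 that was lower. ABCC1 was higher by 1.19 ± 0.28 log2 (SE, limma adjusted p = 0.0150) on 1 of its 2 probes, and PLA2G2A was lower by 1.38, a difference of −1.38 ± 0.29 (adjusted p = 0.00912) that passed on 5 of 5 probes. Over all probes 9.39% were higher and 11.5% lower at day 12 by this test, and day and batch cannot be told apart for these genes either. With the authors' deposited table, used without further centring, the differences were 1.15 ± 0.38 for ABCC1 and −1.24 ± 0.39 for PLA2G2A (SE). The limma adjusted p was then 0.137 for ABCC1 and 0.0933 for PLA2G2A. ABCC1 also missed the threshold without mare 4, 5 or 6 (adjusted p = 0.0634, 0.0677 and 0.0513) and with mare number as a block (0.0510).

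Other carriers of lipophilic molecules in uterine fluid were set beside PTGDS as members of its protein family or of like function. P19, the gene of uterocalin, a lipocalin that the mare's endometrial glands secrete around the conceptus, differed with pregnancy by −0.07 ± 0.15 at day 12 and by −0.07 ± 0.16 at day 8. Its level was 7.30 ± 0.29 in pregnant and 7.37 ± 0.51 in control samples of day 12 (SD), against 7.88 ± 0.30 and 7.95 ± 0.26 at day 8. By mare means the difference between days was −0.58 ± 0.19 (limma adjusted p = 0.0475). Quantile normalisation ended this call with a difference of 0.019 (adjusted p = 0.935), and leaving out any 1 mare lost it (adjusted p = 0.0570 to 0.143). Of 7 alternative settings with all mares or processing changed, quantile among them, only 1 kept it, that with outlier spots kept (adjusted p = 0.0476).

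RBP4, the retinol-binding lipocalin, differed with pregnancy by 0.59 ± 0.26 at day 12 and by −0.06 ± 0.28 at day 8, without passing. By mare means it was higher at day 12 than at day 8 by 2.21 ± 0.33 (SE, limma adjusted p = 0.00232), on 4 of 4 probes. ALB, the carrier albumin, differed by 0.05 ± 0.14 and 0.01 ± 0.16 with pregnancy.

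Of the listed regulators of PTGDS transcription, 3 could be named. ESR1, the oestrogen receptor alpha, differed with pregnancy by −0.18 ± 0.17 at day 12 and 0.09 ± 0.19 at day 8. Its level by mare means was lower at day 12, at −0.81 ± 0.18 (limma adjusted p = 0.0118), on 1 of 6 probes. HES1, a repressor downstream of Notch, differed with pregnancy by −0.42 ± 0.31 and −0.04 ± 0.34 and was higher at day 12 by 0.98 ± 0.18 (adjusted p = 0.00514). TFAP2A was well above background on 1 of 22 arrays and was not tested. With the deposited table, used without further centring, ESR1 differed between days by −0.68 ± 0.38 and HES1 by 0.73 ± 0.39 (SE). Both lost their calls there (limma adjusted p = 0.674 and 0.623). ESR1 also lost it with quantile normalisation (0.123) and without mare 4 or 5 (0.0560 and 0.0532), and HES1 with normexp (0.0925).

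The genes whose changes ran most like that of PTGDS were taken from 598 named genes as those with the 5 highest and the 5 lowest Pearson correlations with the brighter probe over the 11 mare pairs. Over all 598 the correlation had a median of −0.06, with the middle 90% between −0.69 and 0.72, so high values in either direction were common. The points share the mares and the days, and the arrays of a pair share a slide.

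**Figure D5:**
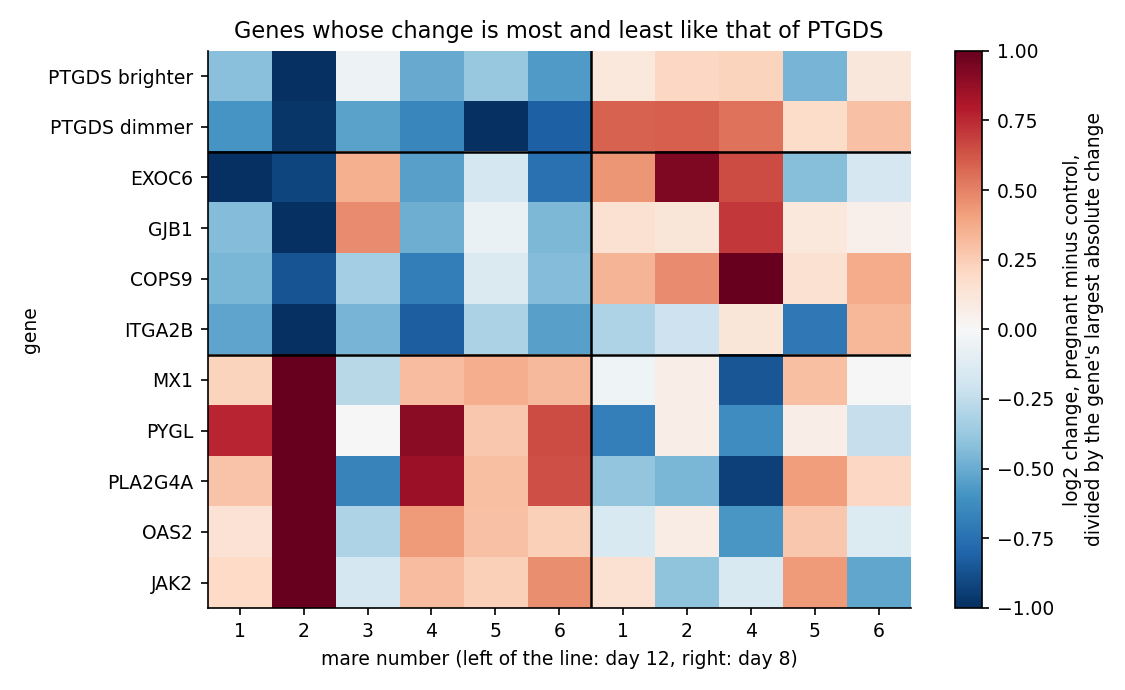
Within-mare change with pregnancy in 11 mare pairs (columns, day 12 left of the line and day 8 right of it) of both PTGDS probes, 4 of the 5 most alike and the 5 most opposite named genes (rows). Colour gives the log2 change, pregnant minus control, divided by the gene's largest absolute change, red where higher in pregnant samples. The column of mare 2 at day 12 is the darkest in 7 of the 9 genes.

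Of the 5 highest, 4 are given here: EXOC6, a subunit of the exocyst that tethers secretory vesicles (r = 0.869), GJB1, a gap junction protein (0.858), COPS9, a subunit of the COP9 signalosome (0.852), and ITGA2B, an integrin chain of platelets (0.844). Spearman's rho for these 4 was between 0.836 and 0.936. COPS9 was lower in 6 of 6 pregnant samples at day 12, by −0.37 ± 0.10 (SE), and higher in 5 of 5 at day 8, by 0.36 ± 0.11, the sign pattern of the dimmer PTGDS probe, with which its r was 0.881. GJB1 averaged −0.40 ± 0.19 at day 12 and 0.28 ± 0.21 at day 8.

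The 5 lowest were JAK2, a kinase of cytokine receptors (r = −0.913), OAS2 and MX1, antiviral genes of the interferon response (−0.889 and −0.845), PLA2G4A, the phospholipase described above (−0.874), and PYGL, a glycogen phosphorylase (−0.857). JAK2 averaged 0.33 ± 0.15 at day 12 and −0.10 ± 0.16 at day 8. On the second PLA2G4A probe r was −0.840. None of these 9 genes passed the test for a pregnancy change at either day.

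Mare 2 at day 12 had the largest change of all 11 pairs in 7 of these 9 genes. Without that pair r ran from 0.762 to 0.873 for the 4 high ones and from −0.852 to −0.742 for the 5 lowest. Without that pair and mare 4 at day 8, the 2 pairs farthest from the median PTGDS change, r was 0.696 to 0.848 and −0.865 to −0.769. With the dimmer probe the same genes gave 0.6248 to 0.881 and −0.814 to −0.625. Among the prostaglandin genes r was 0.593 for PTGFR, 0.564 for PTGES, −0.596 for PTGS2 and −0.706 for ABCC1 over both days. Within the 6 pairs of day 12 it was 0.528 for PTGFR, 0.146 for PTGES, 0.279 for PTGS2 and −0.343 for ABCC1, so PTGS2 changed sign.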

How the data were processed

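The scanner files hold spot intensities on a linear scale, background-subtracted and detrended by Agilent Feature Extraction, 10.5.1.1 at day 12 and 10.7.3.1 at day 8, per the file headers. The authors' deposited value table was read as log2, since it rose with log2 scanner intensity (r 0.988 to 0.997); its medians were 7.47 to 8.84, and its scaling and centring stay unknown. It served as an alternative without further centring, so differences in median between arrays stay in its day comparisons.

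Log2 processed intensity was taken minus each array's 75th percentile over non-control spots. Outlier spots (3 to 152 per array) were dropped and spots of a probe averaged (43603 probes). Probes well above background on at least 5 of 22 arrays were tested (38461). Per array, 74.2% to 92.9% of spots were well above background and 0 saturated, and the 75th percentile was 577 to 1863 units. The number of arrays limits precision. Symbols came from RefSeq genes of horse assembly TB-T2T by accession: 1394 probes had 1 symbol, 1 several and 42208 none. No coordinates are given, since builds differ. Normexp, as an alternative, used the median spot signal because a mean signal was not among the columns.

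Changes were fitted in limma 3.58.1 (R 4.3.3), two-sided, all arrays in 1 fit with mare within day as a block, adjusted by Benjamini-Hochberg over all probes, threshold 0.05. Day levels were fitted on 11 mare means. The fits were tested on simulated data with changes larger than those of PTGDS, so this does not show how changes of its size are recovered. The pairing comes from the labels; deviations of same-mare arrays from group means correlated at 0.288 to 0.744, and in 11 of 11 pairs the own control correlated best. Labels do not say whether a mare number is the same animal at both days. Named genes were all PTGDS probes, the measured members of the lists, and the 5 most alike and 5 most opposite genes, of which 1 is not reported here; each gene stands by its brightest probe. The members and lists were chosen with earlier results of these data known. Alternatives were normexp, quantile, the deposited table, outlier spots kept, no filter, other blocks and leaving out each mare.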

Additional observations from a re-analysis of the deposited data

Results flagged for a closer look

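On the brighter PTGDS probe, the change of mare 5 at day 8 was −0.26 log2 (pregnant minus control), far below the other 4 mares of that day, which lay between 0.06 and 0.12. Without mare 5 the day 8 mean was 0.09. The dimmer probe in the same mare gave 0.09, the lowest of its day but not far from the others.

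On the dimmer PTGDS probe, every mare at day 12 was lower and every mare at day 8 higher in pregnant samples, and the change at day 12 minus that at day 8 was −0.62. This difference was not tested, since the gene was chosen for it. PTGS2 had the opposite pattern, higher in every mare at day 12 and lower in every mare at day 8, with a difference of 0.64 (limma adjusted p = 0.258).

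For PTGES3, the change of mare 3 at day 12 was −0.54, apart from the other 5 mares. In all, 42 groups of values were looked at for a sample that stands apart and 2 had one, where chance alone flags about 1 in 20 groups.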

How the results depend on the processing

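With 11 mare pairs and 1 spot for each of 2 probes, changes of PTGDS are near the scanner error. The day 12 change of the brighter PTGDS probe was −0.10 with normexp, against −0.27, and the dimmer probe's was −0.16, against −0.39, with its difference between days at −0.35. In mare 1 the median change of all probes at day 12 was 1.83 with normexp, against −0.03, and the PTGDS changes there were 0.44 and 0.73. Normexp taken relative to the median change of all probes, an alternative chosen after seeing the data, gave day 12 changes of −0.43 on the brighter and −0.49 on the dimmer probe, lower in 6 of 6 mares on both, and differences between days of −0.52 and −0.71. The mean over both probes gave a difference of −0.46. Leaving out 1 mare at a time gave −0.32 to −0.21 at day 12, −0.01 to 0.09 at day 8, −0.37 to −0.21 for the difference, and −0.52 to −0.31 for the level between days, with adjusted p-values of 0.0942 to 0.247. The PTGDS day level stayed above the threshold in 8 of 8 other settings (adjusted p = 0.105 to 0.944). The count of other prostaglandin genes past the threshold at day 12, which was 1, became 0 with normexp, with no filter on dim probes, with no replicate block and with slide as the block, and ran from 0 to 1 when leaving out a mare. Without the replicate block the SE of the brighter probe's change was 0.217 at day 12 and 0.125 at day 8, against 0.07 at each day, while the means of −0.27 and 0.02 cannot move with complete pairs, and 41 probes in place of 102 passed at day 12. P19 between days reversed to 0.019 with quantile normalisation. Over all probes, calls between days numbered 8029, against 1451 with normexp, 485 with the deposited table, 2257 with mare number as a block and 4428 with slide as a random block. At day 12, leaving out mare 3 gave 573 higher and 404 lower calls, and normexp 13 and 0, against 81 and 21. The cause of these shifts was not tested.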
